A study of Triticum aestivum with 4 samples.

Results

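Genic CHG regions of the B subgenome are the regions of the authors' CHG list that overlap a gene on chromosomes 1B to 7B of wheat. The rule took every row with the orientation "overlapping" on these 7 chromosomes and found 346 regions in 340 genes, of 1745 listed CHG regions and 3119 listed regions in all 3 cytosine contexts. The rule used position only, but every region in the list had already passed a selection by the authors whose name gives a chi-square test and edgeR. Below, control DNA and ultrasound DNA stand for the library of each group. Both libraries came from whole seedlings of the winter wheat line SE15, taken on day 7 of germination in the dark at 20 °C. The ultrasound seeds, at 13.6% water, had been sonicated at 30 kHz and 70 W for 5 min in open dishes 4 cm from the head, and the control seeds had not, with 100 seeds in each group. Per the labels, DNA was converted with an enzymatic methyl-seq kit, although the titles name bisulfite sequencing.

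Bread wheat is a hexaploid that carries 3 related genomes, A, B and D, so that most genes exist as related copies on chromosomes such as 1A, 1B and 1D. CHG is a cytosine context in which H stands for A, C or T. In plants it is methylated mainly by CHROMOMETHYLASE 3-type enzymes, which are recruited by methylation of histone H3 at lysine 9, and it is dense over transposable elements and other silent chromatin. Bodies of active genes usually carry CpG rather than CHG methylation. A seedling holds many cell types, so a level is an average over cells, and a change in few cells cannot be told apart from a smaller change in many.

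A level in percent was given for both libraries at 300 of the 346 regions. The control level was missing at 42, the ultrasound level at 26 and both at 22. Regions that lacked a level were long, with a median of 2854 bp against 1309.5 bp for those with both, and 36 of these 46 were at least 2000 bp long. The 5 longest regions, from 16589 to 28997 bp, all lacked at least 1 level. Each group is represented here by 1 library of the 2 that the labels name, so no value has a replicate check and no test between conditions was run. Which column held the control was inferred by elimination. Read depth is not recorded in the lists, so it is unknown. "Lower" and "higher" describe the ultrasound library against the control library, and intervals cover only the counting of regions, which are not independent of their neighbours.

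Most genic CHG regions of the B subgenome had less methylation in the ultrasound library. Of the 300 regions with both levels, 225, or 75%, were lower (95% exact binomial interval 69.7 to 79.8) and 75 were higher. Over all listed CHG regions 78.2% were lower and 21.8% higher. The control level ran from 0 to 80.4% (median 19.3%), and the ultrasound level from 0 to 90.1% (median 12.2%). The differences, ultrasound minus control, ran from -45.4 to 43.0 percentage points with a median of -8.70, against -8.87 over all listed CHG regions.

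Larger differences were less one-sided, which is partly built in, because a fall cannot exceed the control level. None of the 73 regions under 10% in the control library could fall by 10 points, while 28 of them rose by at least 10. A decrease of at least 10 points was found at 132 regions, or 44.0%, where all listed CHG regions had 43.8%. An increase of that size was found at 57 regions, or 19.0%, against 16.6%. At 25 points or more the counts were 17 lower and 14 higher, which is 5.67% and 4.67% of the regions, against 5.39% and 4.37% over all listed CHG regions. These shares are near those of the whole list.

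The lower regions started at intermediate levels and the higher ones mostly started low. The sets were sorted by the sign of a difference that contains both levels, so this contrast is partly built in. The directions given below for levels under 5% and above 50% are affected in the same way. A link between starting level and direction was not tested. The median of the 225 lower regions was 21.9% in control DNA and 9.64% in ultrasound DNA, and the median region of this set kept 43.1% of its control level. The 75 higher regions had medians of 8.18% and 23.7%. An ultrasound level under 5% was found at 73 regions, of which 71 were lower than in the control library, while a control level under 5% was found at 40. Levels above 50% were found at 22 regions in control DNA and at 17 in ultrasound DNA, and 14 of those 17 were higher than in the control.

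**Figure D1:**
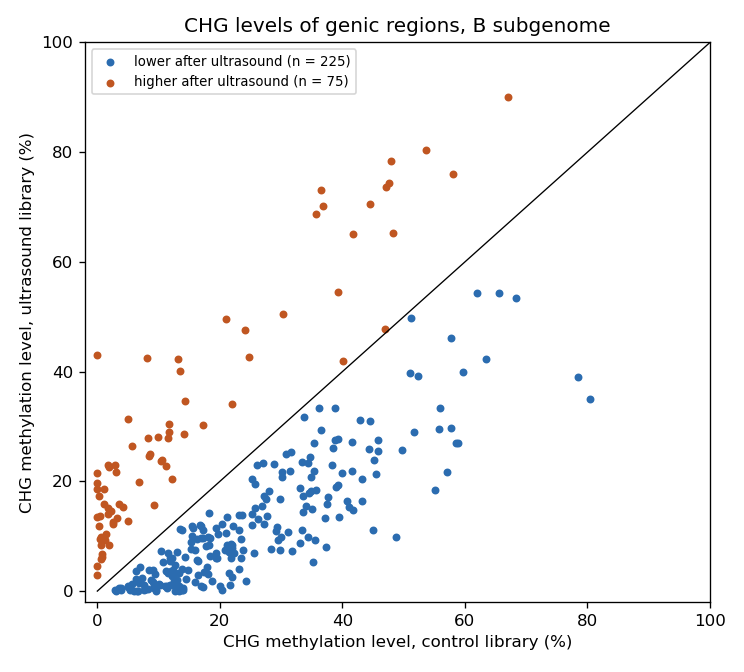
CHG methylation level of each of the 300 regions in the control library (horizontal axis, %) against the ultrasound library (vertical axis, %). Each point is 1 region and the line marks equal levels; 225 points lie below it and 75 above it, and most points lie in the lower left corner.

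The authors' selection did not keep only regions with a large difference. At 31 regions the levels differed by less than 5 points. The smallest difference was at a region overlapping TraesCS4B02G173900 (4B, 381289764 to 381291364), with 46.9% in control DNA and 47.8% in ultrasound DNA. A region overlapping TraesCS2B02G270800 was at 51.2% and 49.8%, and one overlapping TraesCS1B02G082000 at 40.1% and 41.9%. What placed these in the list is not shown by their levels.

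The 10 largest decreases ran from -45.4 to -29.2 points and lay on 1B, 3B, 5B, 6B and 7B, with 4 of them on 7B. The largest overlapped TraesCS1B02G346900, at 80.4% in control DNA and 35.0% in ultrasound DNA (1B, 575870731 to 575872012). Another listed region of the same gene had lower levels in both libraries, at 11.8% and 5.51% (1B, 575866207 to 575867334). The next was MSH7 (TraesCS3B02G136600), a plant protein of DNA mismatch recognition, at 78.4% and 39.1% in a region of 1001 bp (3B, 119464308 to 119465308). TraesCS1B02G151500 was at 48.7% and 9.78% (1B, 237005101 to 237005935), and TraesCS5B02G351100 at 55.1% and 18.4% (5B, 531553107 to 531553944). On 7B the largest decreases overlapped TraesCS7B02G343700, at 57.0% and 21.7% (7B, 599805099 to 599809258), and TraesCS7B02G488400, at 45.0% and 11.1%. In none of these 10 did the ultrasound level exceed 39.1%. Of the 10, 2 carried a description, MSH7 and the hexosyltransferase gene described below.

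The 10 largest increases ran from 26.7 to 43.0 points, with 4 of them on 1B and none on 6B or 7B. The largest overlapped TraesCS1B02G168700, listed at 0% in control DNA and at 43.0% in ultrasound DNA (1B, 299441115 to 299443949). TraesCS1B02G279900 was at 36.6% and 73.1% (1B, 488413598 to 488414667). On 5B, TraesCS5B02G379800 was at 8.18% and 42.5% (5B, 557901623 to 557902670). TraesCS2B02G280400 was at 36.8% and 70.3% (2B, 387072425 to 387073405), and TraesCS3B02G471900 at 35.7% and 68.8% over a longer region of 6913 bp. In each of the 10 the ultrasound level was at least 42.3%. Described genes among the 10 were a WAT1-related protein gene and a gene described as AT5g40850/MHK7_8.

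A level of exactly 0 was listed at 7 regions in control DNA and at 5 in ultrasound DNA, among regions with both levels. After TraesCS1B02G168700, the largest difference of these was at TraesCS2B02G509200, at 0% in control DNA and 21.5% in ultrasound DNA (2B, 705348572 to 705350036). It was followed by the hexosyltransferase gene TraesCS7B02G060200, at 0% and 19.6%, and by TraesCS1B02G335600, at 0% and 18.7%. Among those at 0% in the ultrasound library, TraesCS2B02G037200 had 13.3% in the control library and TraesCS3B02G600200 had 12.7%. Without the depth, a listed 0 cannot be turned into an upper limit.

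The 7 chromosomes differed in how one-sided they were. On 2B, 48 of 55 regions were lower, or 87.3% (75.5 to 94.7), with a median difference of -10.3 points. On 4B, 19 of 29 were lower, or 65.5% (45.7 to 82.1), with a median of -6.28 points. On 3B, 42 of 62 were lower, or 67.7% (54.7 to 79.1), with a median of -7.02 points. The intervals of 2B and 3B, and of 2B and 4B, overlap. Chromosomes 1B and 5B each had 71.4% lower, from 30 of 42 and 25 of 35 regions, and 6B and 7B had 79.3% and 79.2%, from 23 of 29 and 38 of 48.

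Control levels also varied between chromosomes. The median control level was highest on 2B, at 27.7%, and lowest on 4B, at 16.2%. The median ultrasound level ran from 8.28% on 1B to 21.7% on 5B. Chromosome 6B had the narrowest upper range, with no ultrasound level above 29.8% among its 29 regions with both levels and no increase above the 13.5 points of TraesCS6B02G098200, which was at 1.68% and 15.2%. On 4B the largest decrease was -18.5 points, at TraesCS4B02G113600, with 44.4% and 25.9% (4B, 128528455 to 128529371), while its largest increase, at the WAT1-related gene, was 29.2 points. The largest decrease on 2B overlapped TraesCS2B02G036200, at 41.8% and 14.8%, and the largest increase on 7B overlapped TraesCS7B02G354000, at 44.5% and 70.6%.

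**Figure D2:**
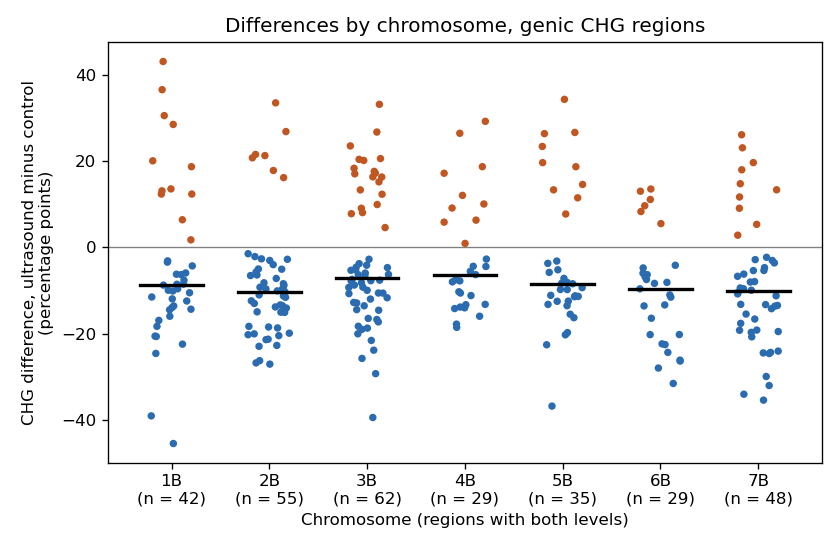
Difference in CHG level, ultrasound minus control in percentage points, for each region with both levels, by chromosome. Points are regions, spread sideways for visibility, and black bars are medians, from -10.3 on 2B to -6.28 on 4B; every chromosome holds regions on both sides of 0.

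The share lower was smaller among the listed genic regions of the B subgenome than among those of A and D. The share lower was 82.9% in the A subgenome, from 228 of 275 regions (77.9 to 87.2), and 84.3% in the D subgenome, from 274 of 325 (79.9 to 88.1). The share lower in B minus that in A was -7.91 points (Newcombe-type interval -14.7 to -0.994), and B minus D was -9.31 points (-15.8 to -2.78). With smaller differences than 10 points left out, B minus A was -6.29 points, and its interval of -15.9 to 3.60 includes 0. With a minimum of 25 points the intervals of both comparisons include 0, at -46.8 to 10.2 against A and -38.1 to 21.98 against D. These intervals treat regions as independent, which they are not, and the difference between subgenomes was not tested. The median differences were close, at -8.70 points in B, -8.97 in A and -8.87 in D. Increases of at least 10 points made up 19.0% of regions in B, 13.5% in A and 9.85% in D, and decreases of that size 44.0%, 42.9% and 45.2%.

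Compared within the groups of related chromosomes, the B chromosome had the lowest share lower of the 3 in 5 of 7 groups. This ranking was not tested. In group 1 the shares were 71.4% on 1B, 88.4% on 1A and 91.5% on 1D, and even the intervals of 1B (55.4 to 84.3) and 1D (79.6 to 97.6) overlap. In group 7 the shares were close, at 79.2% on 7B, 83.3% on 7A and 81.25% on 7D. In group 4 they were 65.5% on 4B, 81.6% on 4A and 81.8% on 4D. Chromosome 2B went the other way, with 87.3% against 81.3% on 2A and 76.5% on 2D, and 6B lay between 6A and 6D. Within the B subgenome itself, genic and flanking regions were alike in share. Of the 186 flanking CHG regions of B with both levels, 138 were lower, or 74.2%, and genic minus flanking was 0.806 points (-7.29 to 9.22). In A and D the same difference was 6.67 (-0.892 to 14.4) and 9.09 points (2.08 to 16.3).

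Split by control level, B had the lowest share of the 3 subgenomes at 0 to 10% and from 30% upward, and the highest at 20 to 30%. The control level is part of the difference, so a dependence of direction on it is built in, and only the side-by-side values of the subgenomes are described. Of the regions at 0 to 10% in the control library, 30 of 73 were lower in B, or 41.1% (29.7 to 53.2), against 66.7% of 78 in A and 60.9% of 69 in D. At 10 to 20% the shares were 85.4% in B, 85.3% in A and 84.6% in D. At 20 to 30% they were 92.0% in B, 83.3% in A and 88.1% in D, and at 30 to 40% they were 89.6%, 94.3% and 91.5%. At 40 to 50%, 17 of 25 were lower in B, or 68%, against 29 of 30 in A and 40 of 40 in D. At 50% or more, B had 19 of 22 lower, A 15 of 15 and D 20 of 20. Over all regions with a control level of at least 10%, the shares were 85.9% in B, 89.3% in A and 90.6% in D.

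**Figure D3:**
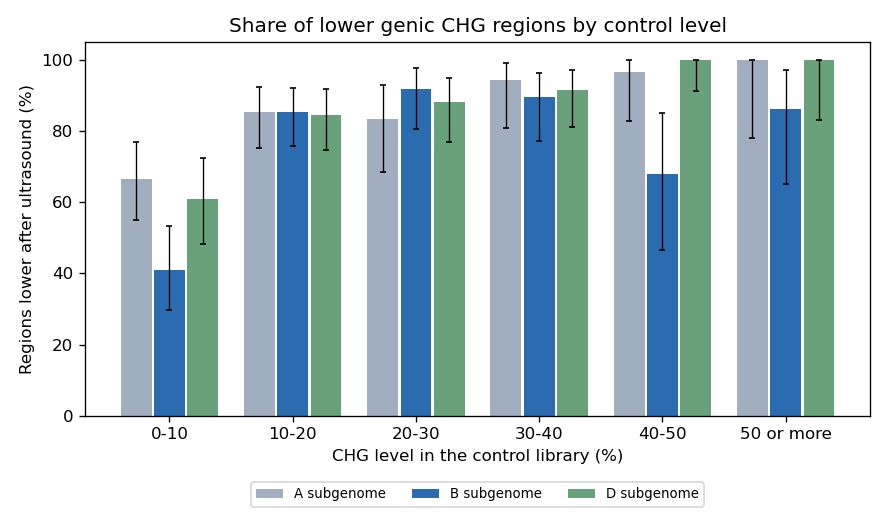
Share of genic CHG regions that were lower after ultrasound (vertical axis, %), by the level in the control library (horizontal axis, %), for the A, B and D subgenomes. Bars are shares and error bars 95% exact binomial intervals over regions; the B bar is the lowest of the 3 at 0 to 10% and in each class from 30% upward, and the highest at 20 to 30%, where B had 92.0%.

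The share lower was similar across region lengths, while the median difference was larger in the 9 longest regions with levels. The regions with both levels were 502 to 10950 bp long. Of the 55 regions of at least 2000 bp, 74.5% were lower, and of the 245 shorter ones 75.1%, a difference of -0.557 points (-15.1 to 11.7). The median difference was -9.54 points in the long and -8.31 points in the short regions. By class, 73.7% of regions under 1000 bp, 76.0% of those from 1000 to 1500 bp, 75% of those from 1500 to 2000 bp and 73.9% of those from 2000 to 5000 bp were lower. Of the 20 longer regions listed, only 9 had both levels. Of these 9, 7 were lower and 2 higher, each by at least 10 points, with a median difference over the 9 of -15.9 points. Lower regions had a median length of 1294 bp and higher ones of 1364 bp. Genes on the plus and minus strands had shares of 75.8% and 74.1%.

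Along the chromosomes, levels were highest in the middle of the span that the regions covered. Each chromosome was cut into 3 equal segments between its first and last listed genic region, since chromosome lengths were not used here. The middle segment held 96 of the 346 regions, with a median control level of 29.7%, and the first and last segments held 102 and 148, with medians of 16.3% and 15.7%. The share lower was 77.4% in the first segment, 80.0% in the middle and 69.4% in the last, with intervals of 67.0 to 85.8, 70.5 to 87.5 and 60.4 to 77.5 that overlap.

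Neighbouring regions shared a direction in most chains. Most regions stood alone, and 44 lay within 10 kb of another in 15 chains. Of the 13 chains with at least 2 regions with levels, 12 were lower throughout and 1 was mixed. As 75% of all members were lower, many chains would be lower throughout in any case, and a link between neighbours was not tested. Some of the 12 held regions of a single gene, such as TraesCS6B02G223900. Of the 75 higher regions, 74 stood alone, against 184 of the 225 lower ones. The mixed chain joined 2 neighbouring genes on 3B, a VAMP-like protein gene of membrane fusion (TraesCS3B02G410300), at 11.7% in control DNA and 29.0% in ultrasound DNA, and a cytosolic fructose-1,6-bisphosphatase gene of sugar synthesis (TraesCS3B02G410400), at 27.2% and 17.3%.

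The longest chain held 9 regions of 9 genes within 29298 bp on 2B (474896231 to 474925528), from TraesCS2B02G330400 to TraesCS2B02G331900, none of them described. All 9 were lower, by 3.98 to 22.7 points, with control levels of 18.2 to 51.7% and ultrasound levels of 13.7 to 29.0%. The next gene listed beyond it, TraesCS2B02G332000, was at 36.1% and 33.4%. A chain on 3B held 5 genes within 32184 bp (201511626 to 201543809), again all lower, from 19.7 to 37.3% in the control library to 7.04 to 15.2%. It began with a gene described as ATP-dependent Clp protease proteolytic subunit (TraesCS3B02G187300), at 21.2% and 8.33%. A region overlapping an ATP synthase subunit beta gene (TraesCS3B02G186000) lay just before it, at 8.47% and 3.88%. Both descriptions are also those of genes that the plastid genome encodes. On 7B, 4 regions of 3 genes within 19757 bp and 3 regions of 3 genes within 7556 bp were all lower.

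Over all contexts, 23 regions lay in stretches of at least 4 listed loci with gaps up to 10 kb, and 4 carried the name of an organelle-encoded gene, 1 of which was also in a stretch. All 25 of these regions with levels were lower, where 75% of all members were. Many of the 25 were neighbours, with 9 in the chain on 2B and 5 in the chain on 3B given above, so they are not separate observations. Without the regions in stretches or with organelle names, 200 of 275 regions were lower, or 72.7% (67.1 to 77.9).

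In 5 genes more than 1 region was listed. TraesCS6B02G223900 held 3 of them within 3729 bp on 6B (337837766 to 337841494), all lower, from 39.5% to 13.4%, from 58.5% to 27.1% and from 45.5% to 21.3%. In TraesCS2B02G487400 the neighbouring regions were at 7.04% and 4.41%, and at 34.1% and 15.4%. In TraesCS7B02G395400 they were at 15.4% and 10.1%, and at 33.1% and 8.72%. Direction was shared in every one of the 5 genes, where all regions were lower, as were 75% of all members. Within 4 of them the control level differed by more than 15 points between regions.

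Where a CpG region of the authors' CpG list overlapped a member, its level moved in the same direction in most cases and by more. Of 40 overlapping pairs 36 had all levels, of which 29 were lower and 5 higher in both contexts. The pairs are not all separate, as the 40 held 39 members of 38 genes, and some CpG regions overlapped 2 members. Both lists were selected by the authors. Of all listed CHG regions 78.2% were lower, and the share for the CpG list is not given here. Whether the agreement exceeds what the shares of the 2 lists alone would give was not tested. The same pair of libraries stands behind both contexts, so this is no independent check. The median difference over these pairs was -12.2 points in CHG and -22.8 points in CpG, and the CpG difference was the larger in size in 33 of 36. The CpG regions also started higher, with a median control level of 41.4% against 23.4% in CHG, so their point differences had more room. The 2 pairs that disagreed were TraesCS4B02G173900 and TraesCS1B02G082000, whose CHG differences are among the 3 smallest. Their CpG levels were 60.4% and 58.1%, and 67.1% and 61.6%.

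The largest summed difference was at TraesCS2B02G526400, with CHG at 20.4% in control DNA and 0.167% in ultrasound DNA, and CpG at 75.9% and 2.00%. The next, TraesCS5B02G361500, was higher in both contexts, with CHG at 5.04% and 31.4% and CpG at 15.7% and 70.8%. In TraesCS1B02G346900, CpG was at 98.0% and 63.1% beside the large CHG decrease given above. TraesCS2B02G037200 was near or at 0 in ultrasound DNA in both contexts, with CHG at 13.3% and 0% and CpG at 49.6% and 0.617%. In TraesCS1B02G151500 a CpG region elsewhere in the gene went against the CHG decrease, at 85.6% in control DNA and 99.3% in ultrasound DNA. CHH regions overlapped a member only once, in TraesCS6B02G214200, where CHG was at 33.4% and 11.1% and CHH at 23.1% and 2.20%.

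**Figure D4:**
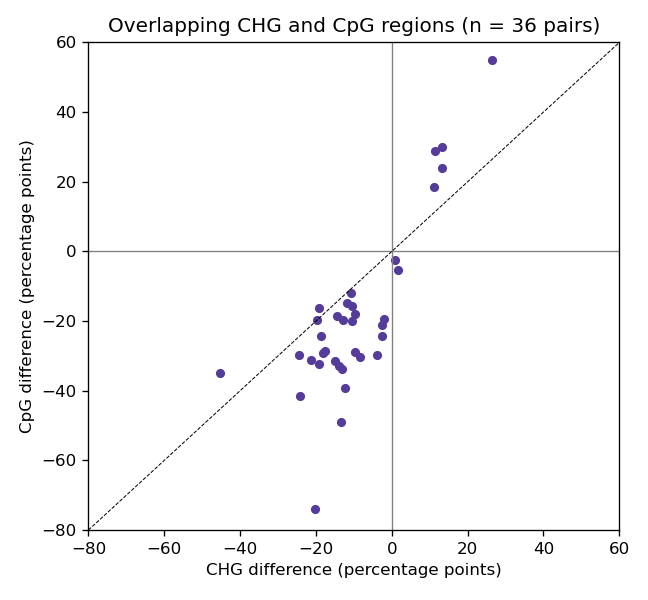
Difference in CHG level (horizontal axis) against the difference in CpG level (vertical axis), ultrasound minus control in percentage points, for the 36 pairs of overlapping regions with all levels. The dashed line marks equal differences; 29 pairs lie to the lower left of 0 and 5 to the upper right.

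A description was given for 46 of the 340 genes, in 47 regions, of which 37 had both levels. Of these, 29 were lower and 8 higher, a share of 78.4% (61.8 to 90.2) against 74.5% of the regions without a description. Of the 37, 16 were lower by at least 10 points, or 43.2%, against 44.0% of all members. All 8 of the higher ones were higher by at least 17.04 points. Increases of at least 10 points thus made up 21.6%, against 19.0% of all members. The genes were grouped by words in their descriptions, and the groups are small, with at most 5 regions with levels each.

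The word groups for DNA repair, chromatin and transcription held 1 region each, and each was lower, as were 75% of all members. Besides MSH7, a histone H3 gene (TraesCS3B02G299200), which encodes a core histone of the nucleosome, was at 35.0% in control DNA and 15.01% in ultrasound DNA (3B, 479985951 to 479986706). A gene for TFIID subunit 12b (TraesCS3B02G395300), part of the general transcription machinery, was at 37.4% and 15.9% (3B, 622772241 to 622773316).

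Genes of RNA handling and translation went both ways, with 3 of 5 lower. That is 60% (14.7 to 94.7), too wide an interval to set the group apart from the 75% of all members. A SAC3 family protein B gene (TraesCS2B02G166300), of a family that acts in mRNA export, was at 43.1% and 16.4% (2B, 139079329 to 139080279). A gene for THO complex subunit 6 (TraesCS5B02G190400), of a complex that couples transcription to mRNA export, was at 23.6% and 13.8%. The gene for the small-subunit ribosomal protein S4 (TraesCS1B02G120600) was at 33.4% and 23.5%. The higher members were a tRNA pseudouridine synthase gene (TraesCS5B02G120900), which modifies uridines of tRNA, at 41.7% and 65.1% (5B, 214939514 to 214940504), and a peptide deformylase gene (TraesCS3B02G234300), which trims new proteins in organelles, at 1.08% and 18.7%.

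Among plastid genes 3 of 4 regions with levels were lower, and among genes of respiration and ATP synthesis 2 of 2. Both counts are too small to set apart from the 75% of all members. Of these 5 lower regions, 3 carried names of organelle-encoded genes. Among those 3 was the ATP synthase subunit beta gene given above. It was counted under respiration and ATP synthesis, although its description is also that of a plastid-encoded gene. A gene for RETICULATA-RELATED 4 (TraesCS1B02G254100), a chloroplast protein in Arabidopsis, was at 18.7% in control DNA and 1.80% in ultrasound DNA (1B, 448296067 to 448297765). The photosystem II protein Z gene (TraesCS4B02G158900) was at 22.2% and 11.9%, and the Clp protease gene is given above. The Rieske subunit gene of the cytochrome b-c1 complex (TraesCS6B02G229200), of the mitochondrial electron transport chain, was at 29.5% and 9.32% (6B, 366606071 to 366606858). The plastid group's higher member was an ABC transporter I family gene (TraesCS3B02G432400), at 48.2% and 65.2%.

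That transporter and the WAT1-related protein gene (TraesCS4B02G028400) were the transport genes with levels, and both were higher. With 2 regions the interval of the share lower is 0 to 84.2, too wide to set the group apart from the 75% of all members. The WAT1-related gene belongs to a family named after an Arabidopsis membrane protein that moves auxin, and was at 13.2% in control DNA and 42.3% in ultrasound DNA (4B, 21183746 to 21184987). A DETOXIFICATION transporter gene (TraesCS6B02G440300) had only an ultrasound level, 33.2%.

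In the group of cell wall and sugar transfer genes, 4 of 5 regions were lower, or 80% (28.4 to 99.5), near the 75% of all members. The hexosyltransferase gene TraesCS7B02G185900, of a class of enzymes that move sugar units, held 2 regions, at 49.7% and 25.7% and at 58.9% and 26.9% (7B, 304976459 to 304981965 together). Another hexosyltransferase gene, TraesCS3B02G419800, was at 27.5% and 16.8%, while TraesCS7B02G060200, given above, was higher. A pectin acetylesterase gene (TraesCS2B02G457000), which removes acetyl groups from cell wall pectin, was at 11.5% and 3.29%. A further pectin acetylesterase gene (TraesCS1B02G042000) had only an ultrasound level, 5.78%.

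The 3 peroxidase genes, which encode enzymes that use hydrogen peroxide, were lower, a count too small to set apart from the 75% of all members (interval 29.2 to 100). TraesCS3B02G461300 was at 25.5% and 6.85%, TraesCS7B02G238300 at 18.3% and 8.39%, and TraesCS6B02G403900 at 9.19% and 1.11%. The 4 genes of seed reserves, amino acids and sugars were lower too (interval 39.8 to 100). They were the storage protein globulin 1 (TraesCS1B02G330000), at 15.7% and 11.4%, the fructose-1,6-bisphosphatase gene above, a homoserine dehydrogenase gene of methionine and threonine synthesis (TraesCS5B02G141000), at 18.1% and 9.84%, and a methionine S-methyltransferase gene (TraesCS1B02G017800), at 33.2% and 18.9%.

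Kinase and phosphotransferase genes differed in direction. A serine/threonine-protein kinase gene (TraesCS1B02G372500) was at 21.6% in control DNA and 1.06% in ultrasound DNA (1B, 603145487 to 603147788). A gene described as phosphotransferase (TraesCS3B02G309700) was at 14.3% and 34.7%. A diacylglycerol kinase gene (TraesCS6B02G381300), of lipid signalling, was at 25.2% and 20.5%. In protein breakdown, the autophagy-related protein 18a gene (TraesCS3B02G490900) was at 31.6% and 25.3% and a proteasome alpha subunit gene (TraesCS4B02G151700) at 5.05% and 0.655%.

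Among the remaining genes, a non-specific lipid-transfer protein gene (TraesCS3B02G063700) was at 37.1% and 13.3% over 4192 bp. A dynein light chain gene (TraesCS2B02G344700), of a motor protein family, was at 7.32% and 2.34%. The gene for TRANSPARENT TESTA 9 (TraesCS2B02G289500), known in Arabidopsis from mutants with pale seed coats, was at 31.1% and 10.7% (2B, 400353091 to 400354393). The gene described as AT5g40850/MHK7_8 (TraesCS3B02G256800) was at 53.7% and 80.4%, the highest ultrasound level of a described gene. The dormancy gene MFT-3B-2 (TraesCS3B02G007400), of the family of MOTHER OF FT AND TFL1, was listed without a level in either library (3B, 3865544 to 3869401).

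Of the described regions, 10 lacked a level, 5 of them in both libraries. Besides MFT-3B-2, those 5 overlapped a chloroplast outer envelope pore protein gene (TraesCS1B02G042300), a gene described as At5g05930 (TraesCS1B02G289600), a glycosyltransferase gene (TraesCS2B02G068700) and a gene for chain 3 of NADH-ubiquinone oxidoreductase (TraesCS7B02G457300). An E3 ubiquitin ligase gene (TraesCS1B02G050200), of an enzyme class that marks proteins for breakdown, had only a control level, 41.3%. Of the 4 with only an ultrasound level, 2 are given above. The others were near 0, with 0.476% at a glycosyltransferase gene (TraesCS5B02G305500) and 0.391% at a proteasome beta subunit gene (TraesCS7B02G437600).

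**Figure D5:**
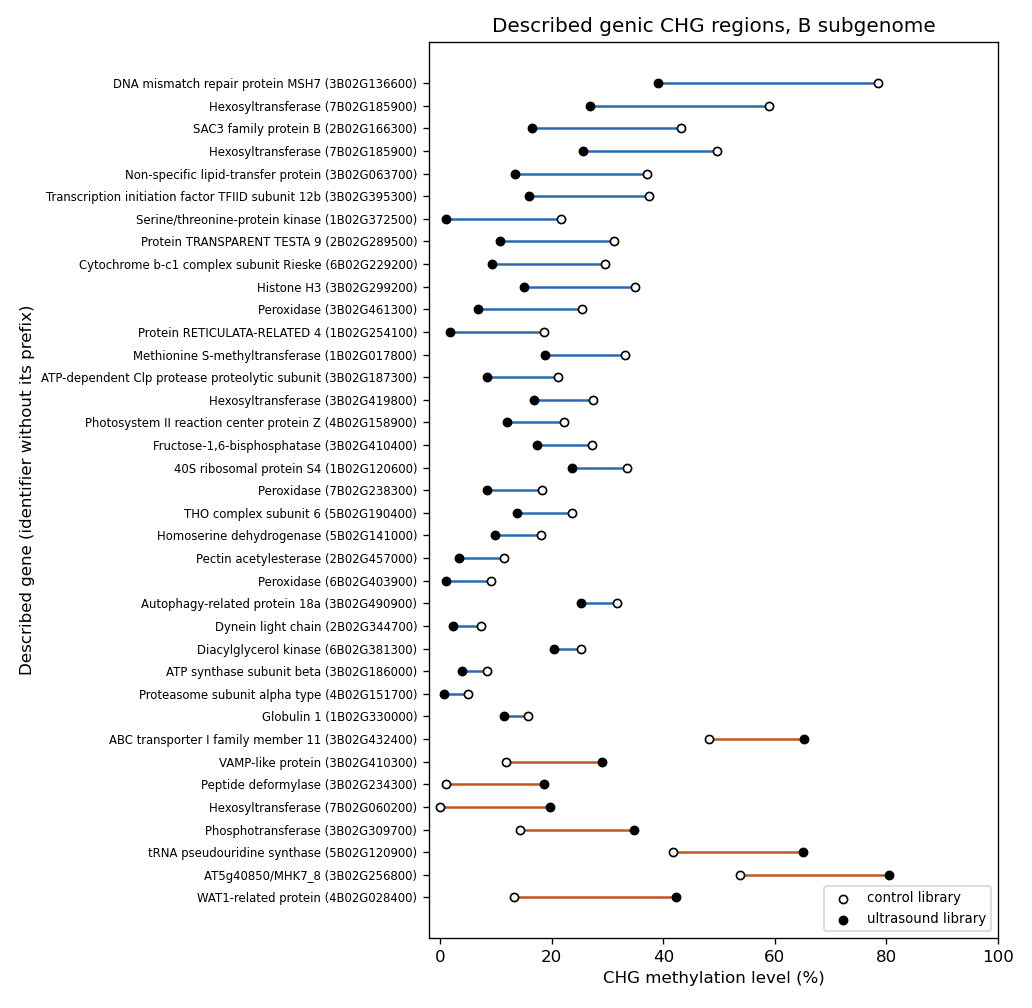
CHG methylation level (horizontal axis, %) of the 37 described regions with both levels, 1 per line. Open circles are the control library and filled circles the ultrasound library; blue lines mark the 29 lower and orange lines the 8 higher regions, sorted by difference from MSH7 at the top to the WAT1-related gene at the bottom.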

How the data were processed

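The authors deposited lists of regions for CpG, CHG and CHH, with a methylation level in percent per region for 1 control and 1 ultrasound library, per the file headers. Their names mention a chi-square test and edgeR, and each region was found in a count of 2 lists, per the file headers. Bismark 0.23.1, Trim Galore 0.6.7, FastQC 0.11.9 and edgeR appear, with no role stated, per the submitters' processing notes. The sources used here give no genome build, definition of a region, selection threshold or coverage. The labels speak of 3 biological samples per group and name 2 libraries per group. The letter K of the control column is unexplained. The column was assigned by elimination, and if that were wrong every direction would be too. Libraries numbered 2 were not analysed here.

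Each difference is the ultrasound level minus the control level. Regions without both levels were left out of directions and medians. Shares carry 95% exact binomial (Clopper-Pearson) intervals (SciPy 1.17.1) and differences of shares Newcombe-type intervals. A region is not a replicate plant, so no p-value is given. Members, word groups and alternatives were chosen with earlier results of these data known, and the 14 word groups were adjusted once the descriptions had been read. Named genes are the 10 largest decreases and increases, the extremes per chromosome, the described genes, the 5 longest regions, the 3 smallest differences, regions at 0%, genes with several regions or other contexts, and the longest chain; other chains were named after their values were seen. The reference gene table matched 0 of 340 identifiers, so no sequence is shown. Alternatives were minimum differences of 10 and 25 points, 1 value per gene, merging across gaps up to 10 kb, exclusion of stretches and organelle names or of regions over 5000 bp, and the mean. The share computation was tested on simulated data in which each region's direction was drawn independently. That did not check the intervals for neighbouring regions that share a direction.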

Additional observations from a re-analysis of the deposited data

How the results depend on the processing

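No paired analysis was possible because levels of only 1 library per group were analysed, and for the same reason no replicate could be left out. Of 85 values under the alternatives, 74 stayed within the interval of the reported value. They included all with 1 value per gene, merging across 10 kb, stretches and organelle names left out, or regions over 5000 bp left out. Some of these settings left a chromosome's regions unchanged, so its value could not move. On 5B all 35 regions remained in each of them, as did all 29 on 4B except with stretches and organelle names left out. With differences of at least 25 points, the share lower was 54.8% of 31 regions, and by chromosome 33.3% on 1B, 60% on 2B, 0% on 4B, 25% on 5B and 100% on 6B, from 2 to 6 regions each. In that setting the median difference was -26.1 points, B minus A was -21.6 points, and long minus short regions was 21.4 points. With differences of at least 10 points the median was -13.2 points, and the mean difference over all regions was -5.66 points. A minimum difference removes small values by construction and leaves out falls from low levels. These medians must therefore move, and the shares lower are affected in the same way.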
